A study of Mus musculus with 96 samples.

Results

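The cytosolic ribosomal protein genes encode the proteins of the large and small subunits of the ribosomes that translate nuclear messages. They were taken as the protein-coding rows of the deposited count table whose symbol begins with Rpl or Rps and a digit, together with Rpsa, Rplp0, Rplp1 and Rplp2. Names ending in -ps and a number, Rps6k kinases and Rps19bp names were left out. This gave 85 of 47373 gene rows, of which 49 belong to the large subunit, 33 to the small subunit and 3 to the P-stalk, and 8 are variant paralogs of another member. The libraries came from livers of 12 male B6C3F1 mice aged 10 to 11 weeks, of which 6 drank water with 600 ppm phenobarbital for 7 days (PB) and 6 were controls (Con). Each liver was frozen and divided into portions, so that every animal gave 1 library to each of 8 preservation states. Frozen portions were set against portions kept in 70% ethanol for 3 months, in 10% buffered formalin for 18 hours and then ethanol up to 3 months, or in 10% buffered formalin for 3 months, all 3 of them then embedded in paraffin. Material fixed for 3 months in formalin was also treated in 4 ways meant to reverse formalin adducts, by heating isolated RNA at 70 °C for 30 minutes in TAE (a Tris-acetate-EDTA buffer), by 18 hours at 55 °C within an AllPrep kit isolation without catalyst (heat only), or by the same incubation with an organocatalyst within an AllPrep or a PureLink kit isolation. Every fixed portion had therefore been frozen first, and the pieces came from mixed lobes.

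Ribosomal protein messages are among the most abundant in growing cells, and their production is tied to growth signals that pass through the mTOR kinase and the LARP1 protein. Many of them begin with a 5′ terminal oligopyrimidine (TOP) tract, an uninterrupted run of C and T that couples their translation to those signals. Phenobarbital activates the nuclear receptor CAR in hepatocytes, induces drug-metabolizing enzymes and enlarges the liver. Formalin adds methylol groups to the bases of RNA and cross-links it to protein, which hinders reverse transcription, and the treatments above are meant to undo this.

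All libraries were strand-specific, were depleted of ribosomal RNA and held 1264563 to 18442730 counts on genes, and the lowest total was the 3-month formalin library of control animal 8A. Cyp2b10, the standard marker of CAR activation, lay between 857.1 and 2736 CPM (counts scaled to library size) in the PB libraries of the 8 states and at most at 4.237 CPM in the Con libraries, so the labelled treatment could be read in every state. The hepatocyte marker list of Alb, Apoa1, Ttr, Serpina1a, Apob and Tat summed to between 65660 and 98760 CPM in frozen PB livers and between 87860 and 113700 CPM in frozen Con livers, with no marker at 0 counts. The 272 rows whose symbol is that of a member followed by -ps, of any biotype, held 0.357 to 0.857 counts for every 100 counts of the members. Pseudogenes under other names were not included in this ratio. Ribosomal protein genes have many near-identical processed pseudogenes, and reads that match several copies may have been lost or split in counting, so levels of single members carry that uncertainty.

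The annotated starts of the members were compared with those of all genes in RefSeq sequences of GRCm38.p6, which held promoters of 65 of the 85. A run of at least 8 C or T within 40 bases of the start was present in 45 of these 65 promoters (69.2%), against 29.2% of the 27025 promoters in the table. Motif letters were searched on both strands over the 300 bases from 250 before to 50 after the start. CTTTCC, which can lie within such a run, was found in 49.2% of member promoters and 26.3% of all promoters. CCGGAAG stood in 38.5% of member promoters and 9.1% of all promoters, and AAGATGGC in 7.7% of member promoters and 2.9% of all promoters. Windows of 30 bases around the longest run are shown for members that rose or fell most in the comparisons below, or, for Rpl7l1, moved least with phenobarbital. Sequences read 5′ to 3′ on the strand of the gene, and capitals mark the longest run of C and T.
Rpl39: cgagtcatccaTCCCCCCCTaagctccgcc
Rps27: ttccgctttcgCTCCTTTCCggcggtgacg
Rpl23: gagtgggcggggCCTCCCgttcatatccca
Rpl18: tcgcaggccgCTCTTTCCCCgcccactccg
Rpl36al: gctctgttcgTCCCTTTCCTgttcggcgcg
Rps27l: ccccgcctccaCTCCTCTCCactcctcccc
Rpl7l1: cgtcgaggcgggCCTCTCTaccccgcccgg
These windows lie at chrX:37085225-37085254 (Rpl39, minus strand), chr3:90213632-90213661 (Rps27, minus), chr11:97782404-97782433 (Rpl23, minus), chr7:45718062-45718091 (Rpl18, plus), chr12:69184020-69184049 (Rpl36al, minus), chr9:66946053-66946082 (Rps27l, plus) and chr17:46782671-46782700 (Rpl7l1, minus). The run spanned the annotated start of Rps27, began at position 2 in Rpl18, and lay before the start in Rpl39, Rps27l and Rpl7l1 and after it in Rpl23 and Rpl36al, counting the first transcribed base as 1. The longest run measured 9 bases in Rpl39, Rps27 and Rps27l, 10 in Rpl18 and Rpl36al, 7 in Rpl7l1 and 6 in Rpl23. The members that rose with phenobarbital in frozen liver and those that were not called held such runs at similar shares, 21 of 28 (75%) and 22 of 32 (68.8%), a description with no test.

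In frozen liver the members together took a small share of the counts. The share ranged from 0.691% to 0.801% of gene counts in the 6 PB livers with a median of 0.729%, and from 0.604% to 0.645% in the 6 Con livers with a median of 0.632%. Every PB liver thus lay above every Con liver, with means of 0.741% ± 0.042 (SD, n = 6) and 0.629% ± 0.015 (n = 6) and a ratio of 1.18. Per kilobase of the principal messenger RNA, the highest frozen levels were those of Rplp1, one of the acidic stalk proteins that recruit elongation factors, at 394.7 CPM per kb in PB and 309.9 in Con livers. Rpl4, a protein of the peptide exit tunnel, followed at 313.1 CPM per kb in PB and 268.9 in Con livers, and Rpl32 at 312.7 in PB and 248 in Con livers. Among the 80 members tested, the lowest by this measure was Rps20, at 28.99 CPM per kb in PB and 22.45 in Con livers. Rpl35 followed at 30.99 in PB and 24.37 in Con livers. The transcript used for Rps20 measured 3706 bases and that for Rpl35 946. The rank of Rps20 rests on that length, since its mean over the 12 frozen livers was 95.33 CPM, against 26.19 CPM for Rpl35. In bulk tissue a smaller number of cells and less RNA per cell cannot be told apart, and the same holds for every level below.

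**Figure D1:**
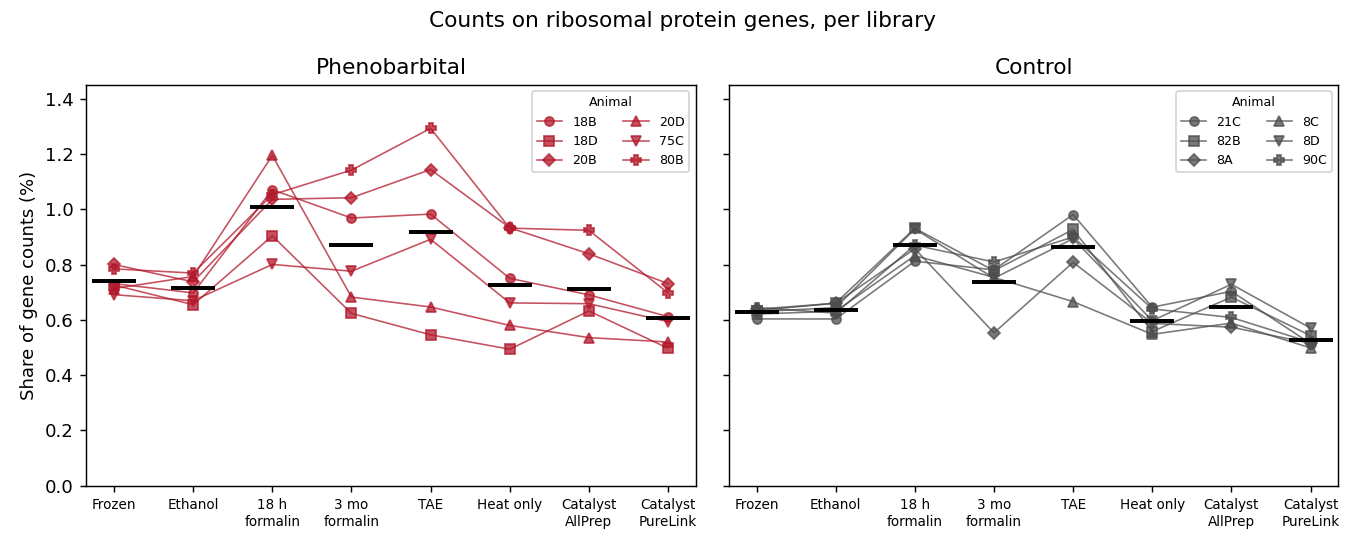
Share of gene counts on the 85 ribosomal protein genes (vertical axis, percent) in each of the 96 libraries, by preservation state, with phenobarbital animals on the left and controls on the right. Lines join the libraries of 1 animal and black bars are group means. The frozen PB values lie between 0.691% and 0.801%, above the Con values of 0.604% to 0.645%, and the PB animals spread between 0.546% and 1.293% in the TAE portions.

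Phenobarbital raised ribosomal protein messages slightly and broadly in frozen liver. Of the 80 members tested, 42 were called higher in PB than in Con livers and none lower (edgeR quasi-likelihood test, Benjamini-Hochberg adjusted p below 0.05 over all genes), while 5.89% of all 13929 genes tested were called higher and 3.53% lower. The difference was positive for 80 of 80 members, with a median log2 fold change of 0.23 against -0.01 over all genes and a range from 0.05 for Rpl7l1 to 0.50 for Rpl39. In CPM, 40 members had ranges that did not overlap between the 6 PB and the 6 Con livers with PB above, as did 4.13% of all genes. The large subunit had 23 of 45 members called with a median log2 fold change of 0.22, the small subunit 18 of 32 with 0.255, and the P-stalk 1 of 3 with 0.24. The count of 42 depended on single animals, since it was 21 without PB animal 80B, 24 without PB animal 20B and 23 without Con animal 21C, and it was 15 when all libraries were thinned to the shallowest total. The members that did not pass the threshold had values in the same direction, and 74 of 80 (92.5%) had an unadjusted p below 0.05, as did 24.6% of all genes.

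Among large-subunit members, Rpl39, a short protein that lines the peptide exit tunnel (ENSMUSG00000079641, chromosome X, 37082520 to 37085402, minus strand of GRCm38), showed the largest difference. Its level was 31.89 CPM in the lowest PB liver, 45.85 at the median and 58.01 in the highest, and 25.92, 34.1 and 37.16 CPM in the Con livers at the same 3 points. The 2 ranges overlapped at their edges, and the log2 fold change was 0.50 ± 0.13 (SE, adjusted p = 0.0265). Its call was lost when Con animal 8A or 21C or PB animal 20B or 80B was left out, with adjusted p from 0.0502 to 0.061. Rpl17, which also reaches into the exit tunnel, lay at 109.7, 118.6 and 138 CPM in PB livers and at 85.54, 93.96 and 101.7 CPM in Con livers, lowest, median and highest. The Rpl17 ranges were apart, with a log2 fold change of 0.37 ± 0.07 (adjusted p = 0.00391). Rpl36a lay at 36.11, 39.82 and 50.69 CPM in PB livers and at 30.82, 31.73 and 38.04 CPM in Con livers. Its ranges overlapped and its log2 fold change was 0.35 ± 0.09 (adjusted p = 0.0312), a call lost without Con animal 8A, 8C, 8D, 21C or 82B or PB animal 20B or 80B (adjusted p 0.0513 to 0.0729).

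Among small-subunit members, Rps20 and Rps7 showed the largest called rises, with no overlap between the groups. Rps20 had 98.13, 103 and 121.5 CPM in PB livers and 76.37, 84.09 and 88.59 CPM in Con livers, lowest, median and highest, a log2 fold change of 0.36 ± 0.07 (adjusted p = 0.00616). Rps7 had 69.19, 77.83 and 92.54 CPM in PB livers and 57.65, 60.25 and 67.91 CPM in Con livers, a log2 fold change of 0.36 ± 0.08 (adjusted p = 0.0111). In both genes every PB liver lay above every Con liver. The smallest adjusted p of the group belonged to Rps13, at 50.24 to 59.5 CPM in PB livers and 40.58 to 44.55 CPM in Con livers (log2 fold change 0.34 ± 0.05, adjusted p = 0.0017), which is named for that rank after its values were seen. The message of Rps6, whose protein is a substrate of the S6 kinases, rose by 0.22 ± 0.05 on the log2 scale (adjusted p = 0.0179). Rps18 rose by 0.23 ± 0.06 (adjusted p = 0.0352), a call lost in 7 of the 12 fits without 1 animal (Con 8A, 8C, 8D, 21C and 82B, PB 20B and 80B, adjusted p 0.0503 to 0.0779), and Rps4x, encoded on the X chromosome, by 0.26 ± 0.06 (adjusted p = 0.0194). Rps3, which helps to form the messenger entry channel, had a log2 fold change of 0.16 ± 0.06 (adjusted p = 0.12), Rpsa, also known as the laminin receptor precursor, 0.13 ± 0.06 (adjusted p = 0.237), and Rps29 0.30 ± 0.10 (adjusted p = 0.0702).

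The 3 stalk genes had similar values. Rplp1 (ENSMUSG00000007892, chromosome 9, 61913284 to 61914542, minus strand) lay at 165.8, 188.9 and 237 CPM in PB livers and at 142.5, 153.6 and 168.8 CPM in Con livers, lowest, median and highest, with a small overlap. Its log2 fold change was 0.34 ± 0.09 (adjusted p = 0.0359). The call was lost in 7 of the 12 fits without 1 animal, those without Con animals 8C, 8D, 21C, 82B and 90C and PB animals 20B and 80B, with adjusted p from 0.0551 to 0.0804. Rplp0, the scaffold of the stalk, lay at 264.2 to 342.5 CPM in PB livers and at 219.4 to 264.4 CPM in Con livers and just missed the threshold (0.24 ± 0.08, adjusted p = 0.0778), as did Rplp2 (0.19 ± 0.06, adjusted p = 0.0703).

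The most abundant members outside the calls besides Rplp0 were Rpl4 and Rpl13a. Rpl4 lay at 429.4, 472.4 and 533.5 CPM in PB livers and at 380.2, 417.9 and 431.4 CPM in Con livers, lowest, median and highest, with a log2 fold change of 0.21 ± 0.07 (adjusted p = 0.0794). Rpl13a, which in human myeloid cells can leave the ribosome to repress translation, had 0.17 ± 0.08 (adjusted p = 0.197). Rpl5 and Rpl11, which join the 5S RNA and can bind the p53 regulator MDM2, differed in call, with 0.12 ± 0.08 (adjusted p = 0.349) for Rpl5 and 0.24 ± 0.07 (adjusted p = 0.0397) for Rpl11. The Rpl11 call was lost without Con animal 8C, 8D, 21C or 82B or PB animal 20B or 80B (adjusted p 0.0624 to 0.0888), and the difference between the 2 genes was not tested. Rpl10, a late-joining protein near the catalytic centre, lay at 191.2 to 198.1 CPM in PB livers and at 164.3 to 190.3 CPM in Con livers. Its ranges were apart by less than 1 CPM and it was not called (log2 fold change 0.09 ± 0.05, adjusted p = 0.265). Rpl41, the shortest ribosomal protein, had 0.33 ± 0.10 (adjusted p = 0.055).

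**Figure D2:**
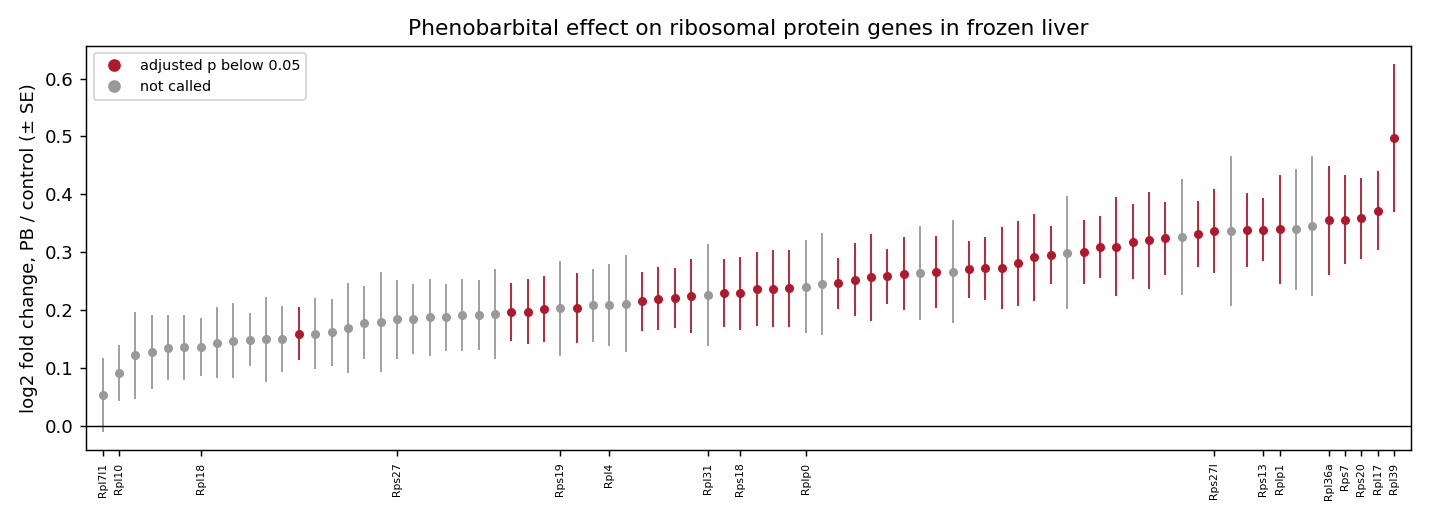
Log2 fold change of PB against Con in frozen liver (vertical axis) for each of the 80 members tested, ordered by value along the horizontal axis, with bars of 1 SE. Names are given for members whose levels are described in the text. Red points are the 42 members with an adjusted p below 0.05. All 80 values lie above 0, from 0.05 for Rpl7l1 to 0.50 for Rpl39.

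Variant paralogs were set beside their parent genes in frozen liver. Rps27l, a paralog of Rps27 that is a p53 target in human cells (ENSMUSG00000036781, chromosome 9, 66946086 to 66949516, plus strand), lay at 74.16, 92.23 and 99.66 CPM in PB livers and at 64.52, 71.37 and 78.3 CPM in Con livers, lowest, median and highest. It rose by 0.34 ± 0.07 on the log2 scale (adjusted p = 0.0107), while Rps27 had 0.18 ± 0.07 (adjusted p = 0.108). The call of Rps27l was lost on thinning to the shallowest total (adjusted p = 0.147). Rpl22l1, a paralog of Rpl22, had 0.34 ± 0.13 (adjusted p = 0.123) and Rpl22 0.18 ± 0.06 (adjusted p = 0.0743). Rpl36a rose as given above, while Rpl36al had 0.15 ± 0.06 (adjusted p = 0.177). Rpl7 rose by 0.22 ± 0.05 (adjusted p = 0.0209), against 0.05 ± 0.06 (adjusted p = 0.655) for Rpl7l1, whose levels of 61.5 to 76.71 CPM in PB livers and 58.48 to 72.16 CPM in Con livers overlapped. Rpl3 had 0.18 ± 0.06 (adjusted p = 0.0931) and Rpl10 the value above. The differences between paralogs were not tested. The 5 members that were not tested had few counts. Rpl10l, known from testis, had none in the 96 libraries, below the floor of 3 counts that a count of 0 allows, and Rpl39l and Rpl3l had 14 and 50 counts over all libraries with at most 4 in any one. Rps27rt had 172 counts with at most 6 in a library, and Rpl24, a core protein of the large subunit, had 502 with at most 19, so these 5 get no fold change in frozen liver. The low count of Rpl24 may come from how reads that match several copies were counted, which was not tested, and is not read as low expression.

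Other genes of translation were read from lists in frozen liver, where 5.89% of all genes were called higher and 3.53% lower. Rack1, a small-subunit protein outside the naming rule, rose by 0.23 ± 0.07 on the log2 scale with phenobarbital (adjusted p = 0.0498), and Fau, whose product carries the small-subunit protein eS30, had 0.12 ± 0.05 (adjusted p = 0.131). Of 20 translation factors and other genes with TOP messages, 4 rose and none fell, with a median of 0.10. They were Eef1g (0.21 ± 0.06, adjusted p = 0.0345), which belongs to the elongation factor 1 complex, and the initiation factor 3 subunits Eif3e (0.18 ± 0.05, adjusted p = 0.0339), Eif3l (0.17 ± 0.04, adjusted p = 0.0251) and Eif3h (0.17 ± 0.05, adjusted p = 0.0389). None of the 20 was called with phenobarbital in the other preservation states or in the summed portions of each animal. Their median was -0.02 in 3-month formalin, -0.09 in TAE and -0.03 in AllPrep catalyst portions, and above 0 elsewhere. Of 24 ribosome biogenesis factors 1 rose, Nhp2 of the H/ACA particle (0.39 ± 0.11, adjusted p = 0.0435), and 1 fell, Ubtf, a transcription factor of RNA polymerase I (-0.29 ± 0.04, adjusted p = 0.000879), with a median of -0.03. Among 13 growth control genes 2 fell, Mtor (-0.26 ± 0.07, adjusted p = 0.0248) and the translation repressor gene Eif4ebp2 (-0.25 ± 0.07, adjusted p = 0.048), and none rose. None of 7 snoRNA host transcripts was called, with a median of -0.12. In the other states their medians lay between -0.27 in ethanol and -0.13 in heat-only portions, with 1 called lower in ethanol. The 78 mitochondrial ribosomal protein genes, whose products form a separate ribosome, had 77 tested, of which 6 rose and 1 fell, with a median of 0.09. All 5 proliferation genes, Mki67, Top2a, Cdk1, Ccnb1 and Plk1, rose in frozen PB livers, with log2 fold changes of 2.24 to 3.19. Every one that could be tested also rose in each other state, with medians of 1.78 to 2.45. These medians were 2.21 in TAE and 2.44 in AllPrep catalyst portions, where no member was called. The 5 summed to 26.93, 40.79 and 138 CPM in PB livers and to 9.227, 11.82 and 19.3 CPM in Con livers, lowest, median and highest, and their part in the rise of the ribosomal protein genes was not tested. No gene was called in the lists of Kupffer, sinusoidal endothelial, stellate, cholangiocyte, erythroid and leukocyte markers, of which 29 of 35 were tested, and of the 6 hepatocyte markers 1, Tat, fell and none rose. List medians were 0.28 for Kupffer, 0.10 for endothelial, 0.08 for stellate and 0.18 for erythroid markers. They were 0.07 for leukocyte, -0.23 for cholangiocyte and -0.28 for hepatocyte markers. In the 7 other states Kupffer medians stayed above 0 and hepatocyte medians below 0. Markers called higher there were 2 each in 3-month formalin, TAE and AllPrep catalyst and 1 in heat-only portions, with at most 2 lower in any state. Their part in the members' rise was not tested.

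The same contrast was then made in the 7 other states, each of which uses the same 12 animals and so does not repeat the frozen comparison independently. In ethanol portions 7 members were called higher and none lower (18 with library totals alone, 15 by DESeq2, 4 by limma voom, 4 unfiltered and 3 when thinned), where 4.82% of all genes were called higher and 2.16% lower, and the median log2 fold change was 0.18 with 80 of 80 values positive. The largest called difference was that of Rps27l, at 67.47, 75.74 and 94.93 CPM in PB and 52.35, 58.84 and 70 CPM in Con portions, lowest, median and highest, with ranges that overlapped slightly (0.39 ± 0.11, adjusted p = 0.0414). Rplp1 had ranges apart and a log2 fold change of 0.33 ± 0.07 (adjusted p = 0.00998), and Rpl17, Rpl41, Rpl36 and Rpl13 were also called. The call of Rps27l was lost without Con animal 8A, 21C, 82B or 90C or PB animal 20B, 20D or 80B (adjusted p 0.0814 to 0.0945). That of Rpl41 was lost in 10 of the 12 fits without 1 animal, all but those without PB animals 18D and 75C (adjusted p 0.0593 to 0.106). That of Rpl17 was lost without Con animal 8A, 21C or 90C or PB animal 20D or 80B (adjusted p 0.0547 to 0.058), and that of Rpl36 without Con animal 82B or PB animal 80B (adjusted p 0.0504 and 0.0558). The count of members was 15 without PB animal 18D, 3 without PB animal 80B and 4 without PB animal 20D or Con animal 8A, 21C, 82B or 90C.

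In 18-hour formalin portions 3 members were called higher and none lower (5 with library totals alone), where 3.45% of all genes were called higher and 1.43% lower, with a median of 0.21 and 78 of 80 values positive. Rps18 lay at 102.3, 134.4 and 139.6 CPM in PB and at 83.82, 96.18 and 110.5 CPM in Con portions, lowest, median and highest. The ranges overlapped and the log2 fold change was 0.41 ± 0.09 (adjusted p = 0.0127). Rps27l lay at 87.19, 98.75 and 134.4 CPM in PB and at 73.96, 81.04 and 90.03 CPM in Con portions (0.35 ± 0.09, adjusted p = 0.0427), and Rpl3 was the third called. Each of these calls except Rps18 was lost in 8 of the 12 fits without 1 animal, with adjusted p from 0.0534 to 0.0972 for Rps27l and from 0.0533 to 0.0934 for Rpl3. The count was 21 without PB animal 75C and 1 without any of Con animals 8A, 8C, 21C or 82B or PB animals 18B, 20B or 80B.

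After 3 months in formalin no member was called by edgeR, DESeq2 or limma voom, although 1.66% of all genes were called higher and 0.446% lower and 2 members (2.5%) had an unadjusted p below 0.05, as did 12.4% of all genes. The median log2 fold change was 0.18 and 77 of 80 values were positive. The median SE of a member was 0.17 there against 0.06 in frozen liver. Heat-only portions had 1 member called higher and none lower, where 3.53% of all genes were called higher and 1.5% lower, with a median of 0.27, the highest of the 8 states. That member was Rplp1, at 137.5, 212.4 and 285.5 CPM in PB and at 123.1, 134.3 and 160.2 CPM in Con portions with overlapping ranges (0.63 ± 0.16, adjusted p = 0.03). The call was lost without Con animal 8A, 8C, 8D or 82B or PB animal 18B, 20B or 80B (adjusted p 0.0618 to 0.0772), and the count was 3 without PB animal 18D and 2 without PB animal 20D. Mitochondrially encoded genes took 10.76% ± 3.52 of the counts in PB heat-only portions and 5.815% ± 0.897 in Con heat-only portions (SD, n = 6 each), and their part in this result was not tested.

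The other treated portions gave no call on members in edgeR. TAE portions had a median of 0.07, the lowest of the 8 states, with 60 of 80 values positive and none with an unadjusted p below 0.05, which 15.2% of all genes had, where 2.35% of all genes were called higher and 0.941% lower. AllPrep catalyst portions had 0.09 with 67 of 80 positive and none with an unadjusted p below 0.05, which 18.7% of all genes had, where 3.12% of all genes were called higher and 1.82% lower. The TAE median turned to -0.01 without PB animal 20B and to -0.06 without PB animal 80B, and the AllPrep median to -0.04 without PB animal 80B. DESeq2 and limma voom also called none in these states. PureLink catalyst portions had 0.19 with 77 of 80 positive and 22 (27.5%) with an unadjusted p below 0.05, which 17.3% of all genes had, where 3.21% of all genes were called higher and 1.44% lower. DESeq2 called 3 members there and limma voom none, and edgeR called 6 with library totals alone, 5 without PB animal 18D and 1 without PB animal 20D or 75C or Con animal 82B.

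Across states, 55 of the 80 members were higher in PB than in Con portions in all 8 states and 72 in at least 7. Rpl39 had values from 0.27 to 0.50 and Rplp1 from 0.22 to 0.63. At the other end, Rpl7l1 was positive in 2 states, with values from -0.09 to 0.05, and Rps2 and Rpl10 in 4. The states share the animals, so these signs are a description.

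**Figure D3:**
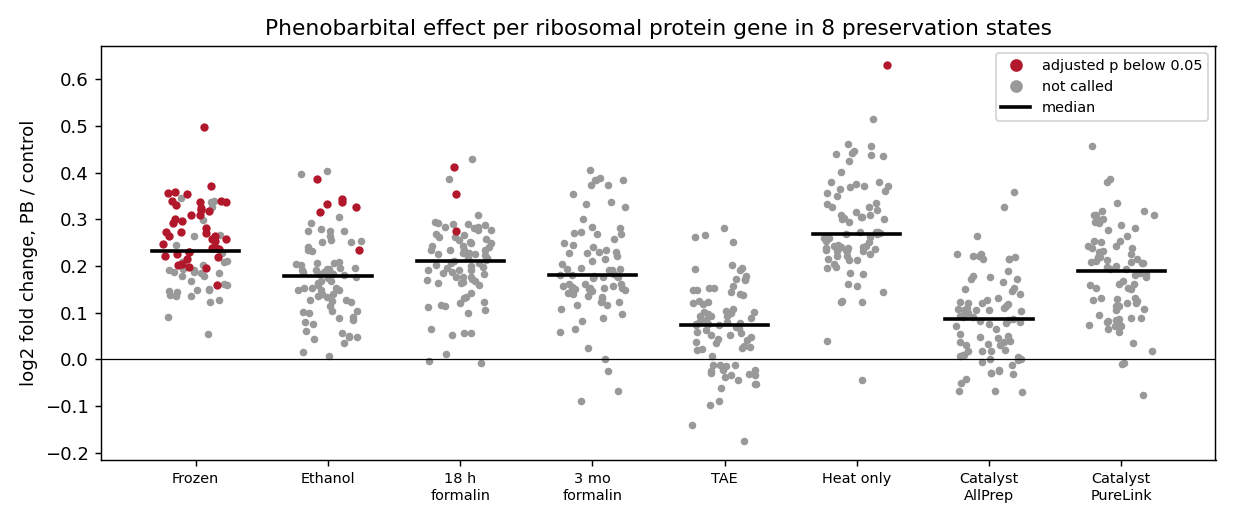
Log2 fold change of PB against Con (vertical axis) for each of the 80 members in the 8 preservation states, with red points for members with an adjusted p below 0.05 and black bars for the median. The number of red points is 42 in frozen, 7 in ethanol, 3 in 18-hour formalin and 1 in heat-only portions, while the medians stay above 0 in every state.

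When the 8 portions of each animal were summed, 82 members could be tested and none was called by edgeR, by DESeq2 or by limma on animal means, where 4.91% of all 18478 genes were called higher and 2.53% lower and 24 members (29.3%) had an unadjusted p below 0.05, as did 21.7% of all genes. With library totals alone 5 members were called. The median log2 fold change was 0.19 and 80 of 82 values were positive. The most abundant members had 0.14 ± 0.08 (Rpl4, adjusted p = 0.344), 0.21 ± 0.11 (Rplp0, adjusted p = 0.305) and 0.03 (Rps2, adjusted p = 0.886). The value of Rps2 turned to -0.01 without PB animal 20B and to -0.02 without PB animal 80B. Without PB animal 75C 2 members were called and without PB animal 20D 1.

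Whether the phenobarbital effect differed between a preserved state and frozen liver was tested with the interaction term, with the animal as a block. No member was called in any of the 7 fits by edgeR or by DESeq2, and over all genes 0.0612% were called in the heat-only fit and 0% in the other 6. Without the low-count filter 1 member was called lower in the 18-hour formalin fit. An unadjusted p below 0.05 was found for 12 members (15%) in the ethanol fit, against 5.54% of all genes, and for 19 members (23.8%) in the AllPrep catalyst fit, against 11.1%. The other counts were close to or below the share of all genes, with 6 members (7.5%) against 6.4% for 18-hour formalin, 4 (5%) against 4.2% for TAE and 6 of 81 (7.41%) against 5.96% for PureLink catalyst. They were 1 member (1.25%) in both the 3-month formalin and the heat-only fit, against 5.62% and 11.2% of all genes. The median interaction was -0.21 for TAE and -0.18 for AllPrep catalyst, with 80 of 80 members negative in each, that is, with a smaller difference between PB and Con than in frozen liver. It was -0.06 for ethanol, -0.03 for 18-hour formalin, -0.09 for 3-month formalin, -0.01 for heat only (0.03 when thinned or without the block) and -0.09 for PureLink catalyst. The smallest p of each fit belonged to Rps13 for ethanol (-0.20 ± 0.07, adjusted p = 0.75), Rps18 for 18-hour formalin (0.19 ± 0.07, adjusted p = 0.704), Rps3a1 for 3-month formalin (-0.25 ± 0.10, adjusted p = 0.83) and Rps2 for TAE (-0.34 ± 0.16, adjusted p = 0.943). It belonged to Rplp1 for heat only (0.25 ± 0.11, adjusted p = 0.392), Rps19 for AllPrep catalyst (-0.28 ± 0.08, adjusted p = 0.358) and Rps10 for PureLink catalyst (-0.20 ± 0.08, adjusted p = 0.809). The 7 fits share the frozen libraries.

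Among PB animals the share of counts on members spread over a wider range in the formalin-derived portions than in frozen liver, a difference that was not tested. In 3-month formalin portions the share of counts on members was 0.624% to 1.142% in PB with a median of 0.872%, against 0.553% to 0.810% in Con with a median of 0.766%. In TAE portions it was 0.546%, 0.937% and 1.293% in PB and 0.666%, 0.897% and 0.981% in Con portions, lowest, median and highest. The groups overlapped in every state except frozen. PB animals 80B and 20B had the 2 highest shares of the PB group in 3-month formalin, TAE, heat-only and catalyst portions, and 18D or 20D the lowest. The order differed in 18-hour formalin portions, where 20D was highest at 1.195% and 75C lowest at 0.801%. There 18B had 1.071%, 80B 1.053% and 20B 1.036%. In frozen liver animals 80B, 20B, 18D and 20D had 0.785%, 0.801%, 0.726% and 0.714%. The standard deviation among PB animals was 0.042 percentage points in frozen and 0.286 in TAE portions, against 0.015 and 0.111 among Con animals.

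Ribosomal protein messages differed between preservation states in both directions. The states were compared within animals, 12 libraries against 12, with the animal as a block. All comparisons with frozen liver share its 12 libraries, and those with 3-month formalin share that state's. Values are relative to the bulk of genes in each library, through TMM scaling, under which the median of all genes lay between -0.02 and 0.04 in these 14 comparisons. Frozen portions were extracted with RNAzol RT and RNeasy MinElute columns, and the labels as used here name no kit for the TAE portions or for the 3 fixed states without demodification, so preservation or incubation and the isolation method cannot be told apart except where 2 states share a kit. With library totals alone the median of all genes itself moved by up to 0.29, and the splits between higher and lower members changed as given below.

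Ethanol portions, which met no formalin, had 3 members higher and 52 lower than frozen liver, with a median log2 fold change of -0.12, where 25.8% of all genes were called higher and 27.1% lower. With library totals alone the split was 12 higher and 26 lower. The largest falls were those of Rpl27 (-0.35 ± 0.04, adjusted p = 3.35e-08), Rps29 (-0.29 ± 0.03, adjusted p = 1.11e-08), Rpl10 (-0.27 ± 0.03, adjusted p = 4.38e-09) and Rps6 (-0.27 ± 0.04, adjusted p = 4.35e-07), each lower in ethanol in 12 of 12 animals. Rps19, Rpl22l1 and Rps9 rose by 0.15, 0.14 and 0.08.

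The 18-hour formalin portions had 69 members higher and 1 lower than frozen liver, with a median of 0.26, where 28.1% of all genes were called higher and 29.7% lower. Small-subunit members were higher in 31 of 32 cases, large-subunit members in 35 of 45 and stalk members in 3 of 3. The share of counts on members was higher than in frozen liver in 12 of 12 animals, at 0.941% ± 0.122 against 0.685% ± 0.066 (SD, n = 12 each). Rpl39 rose by 0.78 ± 0.06, Rps16 by 0.70 ± 0.05, Rps27 by 0.68 ± 0.05 and Rplp1 by 0.63 ± 0.05, each in 12 of 12 animals and with adjusted p of at most 6.75e-12. Rpl6 was the 1 member called lower (-0.13 ± 0.04, adjusted p = 0.00401), and it turned to 0.05 (adjusted p = 0.179) with library totals alone.

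After 3 months in formalin members moved in both directions, with 41 higher and 22 lower than frozen liver and values from -0.64 to 1.31 around a median of 0.15, where 33.9% of all genes were called higher and 32.1% lower. Mitochondrially encoded genes took 9.92% ± 2.4 of the counts there and 2.57% ± 0.41 in frozen liver (SD, n = 12 each), and with those genes removed the split was 35 higher and 24 lower. Without animal 8A, whose library was the shallowest, 62 members were called in place of 63. Rpl31, at the rim of the peptide exit (ENSMUSG00000073702, chromosome 1, 39367842 to 39371911, plus strand), lay at 72.51, 90.56 and 144.7 CPM in 3-month formalin and at 32.02, 38.53 and 49.43 CPM in frozen portions, lowest, median and highest of 12. Every formalin library lay above every frozen one, with a log2 fold change of 1.31 ± 0.07 (adjusted p = 1.17e-14). Rps27 (ENSMUSG00000090733, chromosome 3, 90212522 to 90213651, minus strand) lay at 130.6, 191.3 and 326 CPM in 3-month formalin and at 81.09, 87.5 and 110 CPM in frozen portions. The Rps27 ranges were apart as well (1.17 ± 0.08, adjusted p = 1.65e-12). Rpl39 and Rps16 rose by 1.13 ± 0.09 and 1.00 ± 0.07 with ranges that overlapped, in 12 of 12 animals each.

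Other members fell in the same 12 animals. Rpl18, a core protein of the large subunit (ENSMUSG00000059070, chromosome 7, 45715457 to 45720836, plus strand), lay at 26.27, 50.35 and 65.77 CPM in 3-month formalin and at 70.79, 81.31 and 88.52 CPM in frozen portions, lowest, median and highest. No ranges overlapped, and the log2 fold change was -0.64 ± 0.07 (adjusted p = 8.07e-09). Rps19, the gene most often mutated in human Diamond-Blackfan anaemia, lay at 29.98, 39.81 and 61.05 CPM in 3-month formalin and at 53.24, 61.22 and 80.35 CPM in frozen portions, with a fall of -0.51 ± 0.06 (adjusted p = 1.23e-07). Its ranges overlapped, but all 12 animals had the lower value after formalin. Rpl10a and Rpl7 fell by 0.44 on the log2 scale. Some paralogs had values of different size, with Rpl36al at -0.42 and Rpl36a at 0.19, and Rps27l at -0.003 and Rps27 at 1.17. Rpl22l1 and Rpl22 lay close together, at 0.52 and 0.56. These differences between paralogs were not tested.

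The formalin fixations were also compared with each other. The 18-hour portions were then kept in ethanol, so length of fixation and ethanol storage cannot be told apart in this comparison. Between 3-month and 18-hour formalin, 10 members were higher and 35 lower in the longer fixation, with a median of -0.15, where 25.8% of all genes were called higher and 28.1% lower, and the split was 4 and 48 with library totals alone. Rpl31 was higher again by 0.70 ± 0.08, with ranges apart, and Rpl17, Rps27 and Rpl23 by 0.47, 0.47 and 0.35. Rps19, Rpl18, Rps18 and Rps9 fell by 0.70, 0.63, 0.63 and 0.56 in 3-month formalin, each in 12 of 12 animals. Across the 80 members, the difference of 3-month formalin from frozen had a Spearman correlation of -0.07 with the length and -0.28 with the GC content of the principal transcript, and the other states lay between -0.25 and 0.23 for length and between -0.36 and -0.05 for GC, values that rest on the same frozen libraries.

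**Figure D4:**
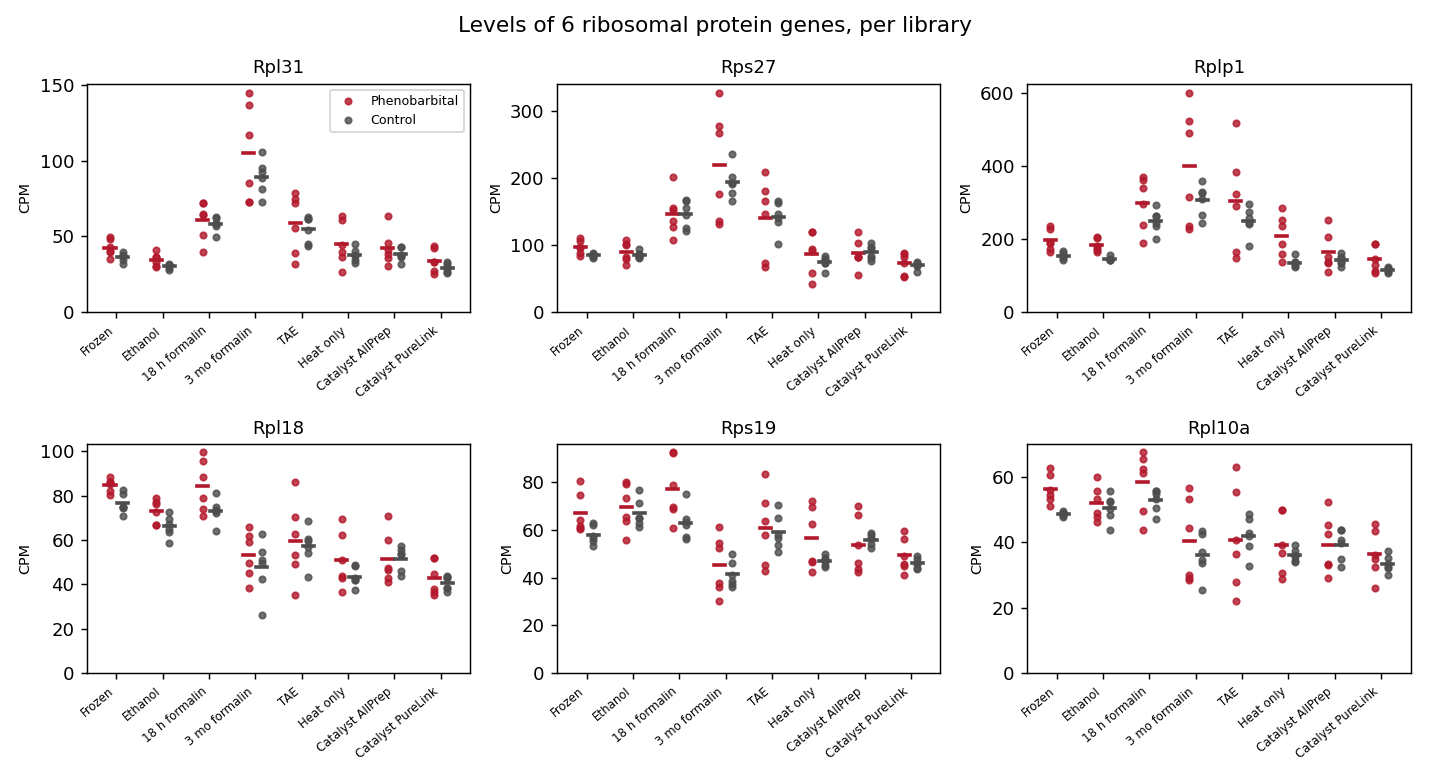
Level in CPM (vertical axis, TMM-scaled) of 6 members in every library, by preservation state, with PB libraries in red on the left of each pair, Con libraries in grey and bars for group means. Rpl31, Rps27 and Rplp1 have their highest group means in 3-month formalin portions, and Rpl18, Rps19 and Rpl10a have lower means there than in frozen portions.

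Heating the isolated RNA in TAE was followed by changes in both directions. TAE against 3-month formalin portions gave 14 members higher and 23 lower with a median of -0.02 (0.01 without the low-count filter and 0.02 when thinned), where 17% of all genes were called higher and 17.5% lower. With library totals alone the balance reversed, to 41 higher and 11 lower with a median of 0.15, and the median of all genes was 0.20. Rpl31 fell by 0.78 on the log2 scale, Rpl35 by 0.62, Rpl17 by 0.57 and Rps27 by 0.57, and Rps19, Rps18, Rps9 and Rps12 rose by 0.47, 0.46, 0.43 and 0.32. Against frozen liver, TAE portions had 31 members higher and 14 lower with a median of 0.09, where 36.7% of all genes were called higher and 32.3% lower, and 59 higher and 3 lower with library totals alone. Rpl23 (0.74 ± 0.07), Rpl39 (0.71 ± 0.12), Rps27a (0.71 ± 0.07) and Rps23 (0.71 ± 0.09) were the highest relative to frozen liver. Rpl29 (-0.60 ± 0.09), Rpl36al (-0.52 ± 0.06), Rpl18 (-0.47 ± 0.08) and Rpl7 (-0.37 ± 0.07) were the lowest.

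Most members were lower in the portions with a long incubation than in 3-month formalin portions, comparisons in which incubation and kit cannot be told apart. Heat-only against 3-month formalin portions gave 1 member higher and 71 lower with a median of -0.46, where 28.8% of all genes were called higher and 27.1% lower. AllPrep catalyst portions gave 1 higher and 61 lower with -0.35, where 29.6% and 28.2% of all genes were called, and 9 higher and 47 lower with library totals alone. PureLink catalyst portions gave 1 higher and 76 lower with -0.67, where 34.9% and 31.8% of all genes were called. The single member called higher was Rps19 in all 3 comparisons, at 0.27, 0.34 and 0.16, which share the formalin libraries. The log2 fold change of Rpl31 was -1.22 in heat-only, -1.25 in AllPrep and -1.60 in PureLink portions, with ranges apart from 3-month formalin in each. Rps27 had -1.35 in heat-only and -1.195 in AllPrep portions, and its ranges were apart there as well. Rplp1 had -1.01 in heat-only, -1.16 in AllPrep and -1.39 in PureLink portions. Rpl39 fell by 1.13 in heat-only, Rpl17 by 0.97 in AllPrep and Rps29 by 1.42 in PureLink portions.

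Against frozen liver, heat-only portions had 1 member higher, Rps16 at 0.22 ± 0.06, and 63 lower with a median of -0.36, where 33.3% of all genes were called higher and 33.4% lower. The split was 15 higher and 34 lower with library totals alone. Rpl36al (-0.81 ± 0.05), Rpl18 (-0.80 ± 0.06), Rps27l (-0.75 ± 0.09) and Rpl23a (-0.72 ± 0.09) fell most. AllPrep catalyst portions had 5 members higher and 54 lower with -0.25, where 34.6% and 28.6% of all genes were called, and 23 higher and 26 lower with library totals alone. Rps16, Rpl39, Rpl23 and Rpl22l1 were 4 of the 5 higher, at 0.21, 0.21, 0.21 and 0.15, while Rpl36al, Rpl18, Rpl29 and Rpl27 fell by 0.66, 0.64, 0.54 and 0.54. In PureLink catalyst portions all 80 members tested were lower, with a median of -0.57 and values from -0.94 to -0.10, where 37.8% of all genes were called higher and 33.5% lower. With library totals alone 62 were lower and 3 higher. Rpl18, Rpl29, Rpl36al and Rpl36 fell most, by 0.94, 0.93, 0.89 and 0.89. Most cell type markers were also lower there than in frozen liver, 30 of 34 tested with 2 higher, among them 6 of 6 for hepatocytes (median -0.74), Kupffer cells (-0.70) and sinusoidal endothelium (-0.63) and 5 of 6 for the erythroid list (-1.29). Mitochondrially encoded genes took 4.56% ± 0.76 of counts in PureLink portions and 2.57% ± 0.41 in frozen liver (SD, n = 12 each), and the part of these shifts in the members' fall was not tested. As a share of counts, members took 0.497%, 0.532% and 0.731% in PureLink portions and 0.604%, 0.668% and 0.801% in frozen liver, lowest, median and highest of 12, lower in 12 of 12 animals. In heat-only and AllPrep catalyst portions the shares of 0.661% and 0.681% lay close to that of frozen liver, with 4 and 5 of 12 animals higher.

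The long incubations were compared with each other. AllPrep catalyst against heat-only portions, which differ in catalyst, gave 10 members higher and none lower with a median of 0.09, where 8.08% of all genes were called higher and 5.9% lower. Rps27l rose by 0.38 ± 0.08 in 12 of 12 animals, and Rpl22l1, Rps21 and Rps25 by 0.27, 0.22 and 0.21. Without the block no member was called. PureLink against AllPrep catalyst portions, which differ in the isolation kit, gave 79 members lower and none higher with a median of -0.31, where 17.8% of all genes were called higher and 19.1% lower. Rps29 (-0.52 ± 0.06), Rpl32 (-0.46 ± 0.04), Rpl37a (-0.45 ± 0.04) and Rpl28 (-0.45 ± 0.06) fell most, the first 3 in 12 of 12 animals and Rpl28 in 11. Without the block 21 members were called lower.

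**Figure D5:**
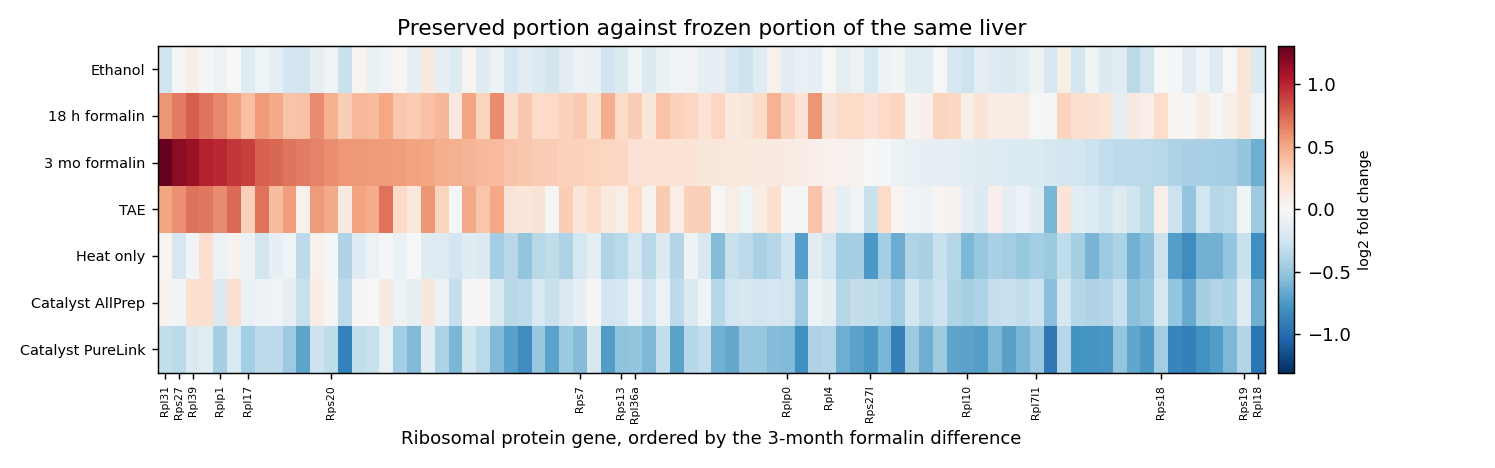
Log2 fold change of each preserved state against frozen liver, paired by animal (colour, red for higher and blue for lower than frozen), for the 80 members tested, ordered by the 3-month formalin difference, with names for members whose levels are described in the text. Values run from 1.31 for Rpl31 to -0.64 for Rpl18 in 3-month formalin, and all 80 are below 0 in PureLink catalyst portions.

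Other gene groups were read in the same comparisons. Against frozen liver in 18-hour formalin, Rack1 and Fau rose by 0.31 ± 0.04 and 0.28 ± 0.05, beside the member median of 0.26, and in PureLink catalyst portions they fell by 0.53 and 0.51. Of 77 mitochondrial ribosomal protein genes tested, 15 were higher and 30 lower in 18-hour formalin (median -0.04), and 8 higher and 45 lower in 3-month formalin (median -0.31). They were largely lower in the other states too, with 43 lower in ethanol (median -0.12), 55 in TAE (-0.30), 67 in heat-only (-0.45), 61 in AllPrep (-0.34) and 67 in PureLink portions (-0.51), and 3 to 5 higher in each. Of 20 translation factor and other TOP genes, 11 were higher and 6 lower in 18-hour formalin (median 0.12), 6 higher and 12 lower in heat-only (-0.15), and 4 higher and 14 lower in PureLink portions (-0.305). Of 24 biogenesis factors, 1 was higher and 18 lower in 18-hour formalin (median -0.23), and 1 higher and 16 lower in PureLink portions (-0.29). The 7 snoRNA host transcripts had 6 higher and none lower in both 18-hour formalin (median 0.425) and PureLink portions (0.54). Of the 34 or 35 cell type markers tested against frozen liver, 25 were lower in ethanol, 17 in 18-hour formalin, 16 in 3-month formalin, 23 in TAE, 28 in heat-only and 29 in AllPrep portions, with 2, 7, 8, 3, 1 and 1 higher, and the part of these shifts in the members' values was not tested. Over the 96 libraries, the genes whose log2 CPM followed the mean of the 80 members most closely among 9594 other protein-coding genes were Rack1 (Pearson r = 0.98), Mrps24 (0.94) and Fau (0.93), a description over libraries that share animals and states.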

How the data were processed

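Counts per Ensembl gene were deposited by the authors as raw whole numbers, not normalized, and were the basis of every value. CASAVA, STAR 2.5 and edgeR are named, without roles, per the submitters' processing notes. How reads were counted, and with which annotation and strand option, is not stated in those notes or the labels. A second deposited table of log2 values was not used. Symbols, biotypes and coordinates came from GENCODE M21 (GRCm38), which matched 46954 of 47373 genes, and 92 spike-in rows (110 counts) were left out. The members, the other gene lists and the naming rule were chosen with earlier results of these data known. The rule named fixed members, the largest called rises and falls of each comparison, the most abundant uncalled members and the smallest p of each interaction. A single member among those the rule names is left out.

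Tests used edgeR 4.0.16 in R 4.3.3 (quasi-likelihood F test, TMM scaling, default low-count filter, Benjamini-Hochberg adjustment over all genes at 0.05). SE is the log2 fold change over the square root of F. PB was compared with Con within each state (6 against 6) and over the summed portions of an animal, states with the animal as a block. Sample titles carry the animal, and deviations from group means over 10191 genes had a correlation over 0.1 for 336 of 336 pairs of libraries from 1 animal, at a median of 0.68 and of -0.05 for different animals. CPM values are TMM-scaled over the 96 libraries. The floor of 3 counts covers counting error only, while SE and SD also include variation between libraries. On simulated counts the frozen PB test recovered 59% of 1.5-fold and 86% of 2-fold changes over 13929 genes, the 3-month formalin test 75% and 94% over 13477, and its interaction test 35% and 64% over 14279. Of the calls in these 3 tests, 3.33%, 5.59% and 9.17% were false, in that order. Changes below 1.5-fold were not simulated, so recovery at the median member log2 fold change of 0.23 in frozen liver was not measured. DESeq2 1.42.0 and limma 3.58.1 were alternatives. Those chosen after seeing the data were limma voom with quality weights, limma on animal means, leaving out animal 8A and transcript length and GC.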

Additional observations from a re-analysis of the deposited data

Results flagged for a closer look

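A library was counted as standing apart where its gap to the nearest other library of the group was above Dixon's 95% critical share of the group's range for 6 libraries, which chance exceeds in about 1 of 20 groups. Of 58 groups examined (16 of shares and the others of members whose values are given above), 3 had such a library. In Con 3-month formalin portions the share of counts on ribosomal protein genes was 0.5533% in animal 8A, against 0.751% in the next lowest, and that library also had the lowest total of counts. In frozen Con livers Rpl4 was at 380.2 CPM in animal 21C, against 414.6 in the next lowest, and Rpl10 at 164.3 CPM in the same animal, against 181.3. No member was called in an interaction by edgeR with the default low-count filter or by DESeq2, and in no preserved state did all PB animals move one way from frozen liver and all Con animals the other, in the share or in the members examined.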

How the results depend on the processing

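Of 353 recomputed counts of called members 301 were within 1.5 times the value reported, a tally that includes counts of 0 that stayed at 0. Leaving out 1 animal moved the count by over 1.5 times in 3 of 12 fits in frozen and 7 in ethanol portions. It did so in 8 of 12 fits in 18-hour formalin, 9 in heat-only, 4 in PureLink catalyst and 2 in summed portions. Thinning all libraries to the shallowest total gave 15 called members in frozen PB against Con, 3 in ethanol, 29 (1 higher, 28 lower) in ethanol against frozen and 5 in AllPrep catalyst against heat only. Library totals alone gave 18 for PB in ethanol, 5 in 18-hour formalin, 6 in PureLink catalyst and 5 in summed portions, 52 (41 higher, 11 lower) in TAE against 3-month formalin, where the balance reversed, and an adjusted p of 0.179 with a reversed sign for Rpl6 in 18-hour formalin against frozen. DESeq2 gave 15 for PB in ethanol and 3 in PureLink catalyst, limma voom 4 in ethanol. Without the low-count filter the counts were 4 for PB in ethanol, 23 (21 higher, 2 lower) in AllPrep catalyst against heat only, and 1 in the 18-hour formalin interaction. Without the replicate block, calls were 35 in ethanol against frozen, 9 (3 higher, 6 lower) in TAE against 3-month formalin, 0 in AllPrep catalyst against heat only and 21 in PureLink against AllPrep catalyst, and the block moved no other count by over 1.5 times. Leaving out 1 animal gave 21 to 62 in frozen, 3 to 15 in ethanol, 1 to 21 in 18-hour formalin, 0 to 3 in heat-only, 0 to 5 in PureLink catalyst and 0 to 2 in summed portions, and 0 in the other 3 states. The median log2 fold change of members changed sign in TAE against 3-month formalin (-0.025, against 0.153 with library totals alone, 0.011 unfiltered and 0.019 thinned), in the heat-only interaction (-0.007, against 0.026 thinned and 0.030 without the block), and for PB in TAE without PB animal 20B or 80B (-0.009 and -0.059) and in AllPrep catalyst without 80B (-0.036), and in no other setting run. The cause of these changes was not tested. The 3-month formalin library of animal 8A had the lowest total, and without that animal 62 members in place of 63 were called against frozen.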
